A study of Homo sapiens with 6 samples.

Results

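Among the genes of HL-60, a human acute myeloid leukaemia line, 63 had a mean of at least 10 CPM (counts of a gene scaled to the library's own total) in 3 DMSO libraries and not a single count in 3 libraries of cells kept in CIP, made from the plant Corydalis incisa. These genes were chosen by those counts, so their absence from the CIP libraries is a description and carries no test. The rule took 71 symbols, and 8 were set aside by name (MEIS1, TPSAB1, IRF8, MT1F, NTRK3, CYP46A1, HLA-DRB1 and ABCA3). The 63 genes stand among 22384 symbols with at least 1 count in any library. CIP cells were exposed for 6 months to an amount raised slowly up to 20 µg/ml from a start of 2 µg/ml, and the series describes them as resistant, while DMSO cells received the solvent over the same period. Both groups are labelled wild type and were grown in the same RPMI-1640 medium with serum. The series sought genes behind CIP-induced differentiation. Nothing in the labels ties the 3 libraries of a group to separate cultures, and every p-value below covers only library-to-library spread, which may be technical.

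The assay, QuantSeq, counts reads from transcript 3′ ends. The CIP libraries held 9314584, 10553366 and 10868396 counts, and the DMSO libraries held 9287611, 9759687 and 8143657. MPO, the myeloperoxidase that defines promyelocytes and that HL-60 is known to make in abundance, had 77887 to 84917 counts in CIP libraries and 9 to 15 in DMSO libraries. The DMSO values of MPO go against the background of the line, while the granule protease gene ELANE was read under both labels (2826, 3597 and 3007 counts in CIP libraries, 5899, 5713 and 5697 in DMSO libraries). Of the other promyelocyte markers, CTSG (means of 88 CPM in CIP and 707 CPM in DMSO libraries) and AZU1 (23.3 and 47.7) were higher in DMSO libraries. PRTN3 (393 and 310), CD33 (83.8 and 71) and MYC (258 and 45.2) were lower there. The 2 genes listed as lost in the line summed to 23.8 to 27.7 CPM in CIP libraries and 114 to 145 CPM in DMSO libraries, most of it CDKN2A. The groups are called by their labels. Among marker lists of other cells, the 5 T and NK cell markers summed to 3.22 to 4.14 CPM in CIP libraries and 85.8 to 108 CPM in DMSO libraries, most of it NKG7, with CD3D and CD3E at 0 in the DMSO libraries. The 5 monocyte markers summed to 17 to 26.2 CPM in CIP libraries and 263 to 279 CPM in DMSO libraries, most of it the lysozyme gene LYZ, with CSF1R at 0.579 and 0.918 CPM, FCGR1A at 2.87 and 3.14 CPM, and CD14 at 0 in the DMSO libraries. The 5 B cell markers summed to 0.828 to 1.8 CPM in CIP libraries and 15.5 to 17.8 CPM in DMSO libraries. MS4A1 was at 0 in both. The 4 neural markers summed to 0.758 to 1.47 CPM in CIP libraries and 19.3 to 27.3 CPM in DMSO libraries. CD79B (means of 0.287 CPM in CIP and 0.0342 CPM in DMSO libraries), CD247 (0.518 and 0.173) and CHGA (0.184 and 0) also went against these sums. The 5 mast cell and basophil markers summed to 80.7 to 87.6 CPM in CIP libraries and 114 to 129 CPM in DMSO libraries. Of these, GATA2 (82 and 2.21), CPA3 and HDC were higher in CIP libraries, and MS4A2 and TPSAB1 lower. The 3 megakaryocyte markers summed to 1.93 to 3.22 CPM in CIP libraries and 0 in DMSO libraries. The part of these marker differences in the results was not tested, and in bulk RNA fewer cells of a type and less RNA per cell cannot be told apart.

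A gene that gives no transcript at all may be held off by its chromatin. Promoters rich in the dinucleotide CpG are typical of genes active in most cells and can be shut by methylation or Polycomb, whereas promoters poor in CpG are typical of genes that only some tissues use and depend on tissue factors. A gene can also be silent because its DNA is missing. These counts do not tell such states apart. To show the range among the 63 genes, 4 promoters are printed from RefSeq (GRCh38.p14, the 250 bases before and 50 after the start, 5′ to 3′ on the gene's strand), with each CpG in capitals. The first pair, LOC124902874 (chr12:9951407-9951706, plus strand) and LY86 (chr6:6588470-6588769, plus strand), hold 2 and 3 CpG.
LOC124902874: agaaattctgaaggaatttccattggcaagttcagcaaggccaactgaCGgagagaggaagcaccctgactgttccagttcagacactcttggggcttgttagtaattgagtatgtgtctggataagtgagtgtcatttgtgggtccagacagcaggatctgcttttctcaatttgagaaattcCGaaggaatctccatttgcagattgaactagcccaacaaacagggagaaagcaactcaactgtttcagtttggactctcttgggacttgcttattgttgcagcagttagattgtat
LY86: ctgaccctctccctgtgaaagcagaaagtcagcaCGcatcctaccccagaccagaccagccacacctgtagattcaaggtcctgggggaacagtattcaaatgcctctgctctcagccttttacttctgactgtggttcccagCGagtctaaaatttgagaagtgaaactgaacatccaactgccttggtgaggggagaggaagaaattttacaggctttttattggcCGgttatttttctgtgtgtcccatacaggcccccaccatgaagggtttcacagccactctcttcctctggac
The other pair, UNCX (chr7:1232622-1232921, plus strand) and MERTK (chr2:111898357-111898656, plus strand), hold 20 and 32 CpG.
UNCX: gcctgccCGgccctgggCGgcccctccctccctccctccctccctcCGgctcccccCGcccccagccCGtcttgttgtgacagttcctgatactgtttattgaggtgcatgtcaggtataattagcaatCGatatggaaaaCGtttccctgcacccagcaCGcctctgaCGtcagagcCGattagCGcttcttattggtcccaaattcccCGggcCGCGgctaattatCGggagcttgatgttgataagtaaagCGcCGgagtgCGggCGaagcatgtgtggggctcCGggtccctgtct
MERTK: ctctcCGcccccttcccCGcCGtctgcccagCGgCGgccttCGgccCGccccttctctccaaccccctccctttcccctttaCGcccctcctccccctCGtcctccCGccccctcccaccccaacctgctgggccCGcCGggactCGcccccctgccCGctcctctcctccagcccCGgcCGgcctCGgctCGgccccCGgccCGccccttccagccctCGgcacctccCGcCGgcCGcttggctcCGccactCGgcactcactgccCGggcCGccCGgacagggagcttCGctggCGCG

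The CIP libraries held 0 counts of the 63 genes among 30736346 counts, against 13283, 13935 and 12174 counts of them in the DMSO libraries, or 0.143%, 0.143% and 0.149% of each DMSO total. A count of 0 over the CIP group allows a level of up to 0.0976 CPM (3 counts over the group), and folds are lower bounds against that limit. By that measure the genes were at least 103-fold to 1267-fold lower in CIP libraries, with a median bound of 173-fold. Their DMSO means ran up to 123.7 CPM with a median of 16.9 CPM. Only 7 lay above 40 CPM, 18 lay between 20 and 40 CPM, and 38 lay under 20 CPM. Of 8340 symbols with a DMSO mean of at least 10 CPM, 0.851% had no CIP count, and of 7607 symbols with a CIP mean of at least 10 CPM, 0.631% had no DMSO count (48 symbols, or 38 after the same families and names were set aside). Most DMSO-expressed genes were read under both labels, and 7743 of the 8340 had more than 100 counts over the CIP libraries.

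**Figure D1:**
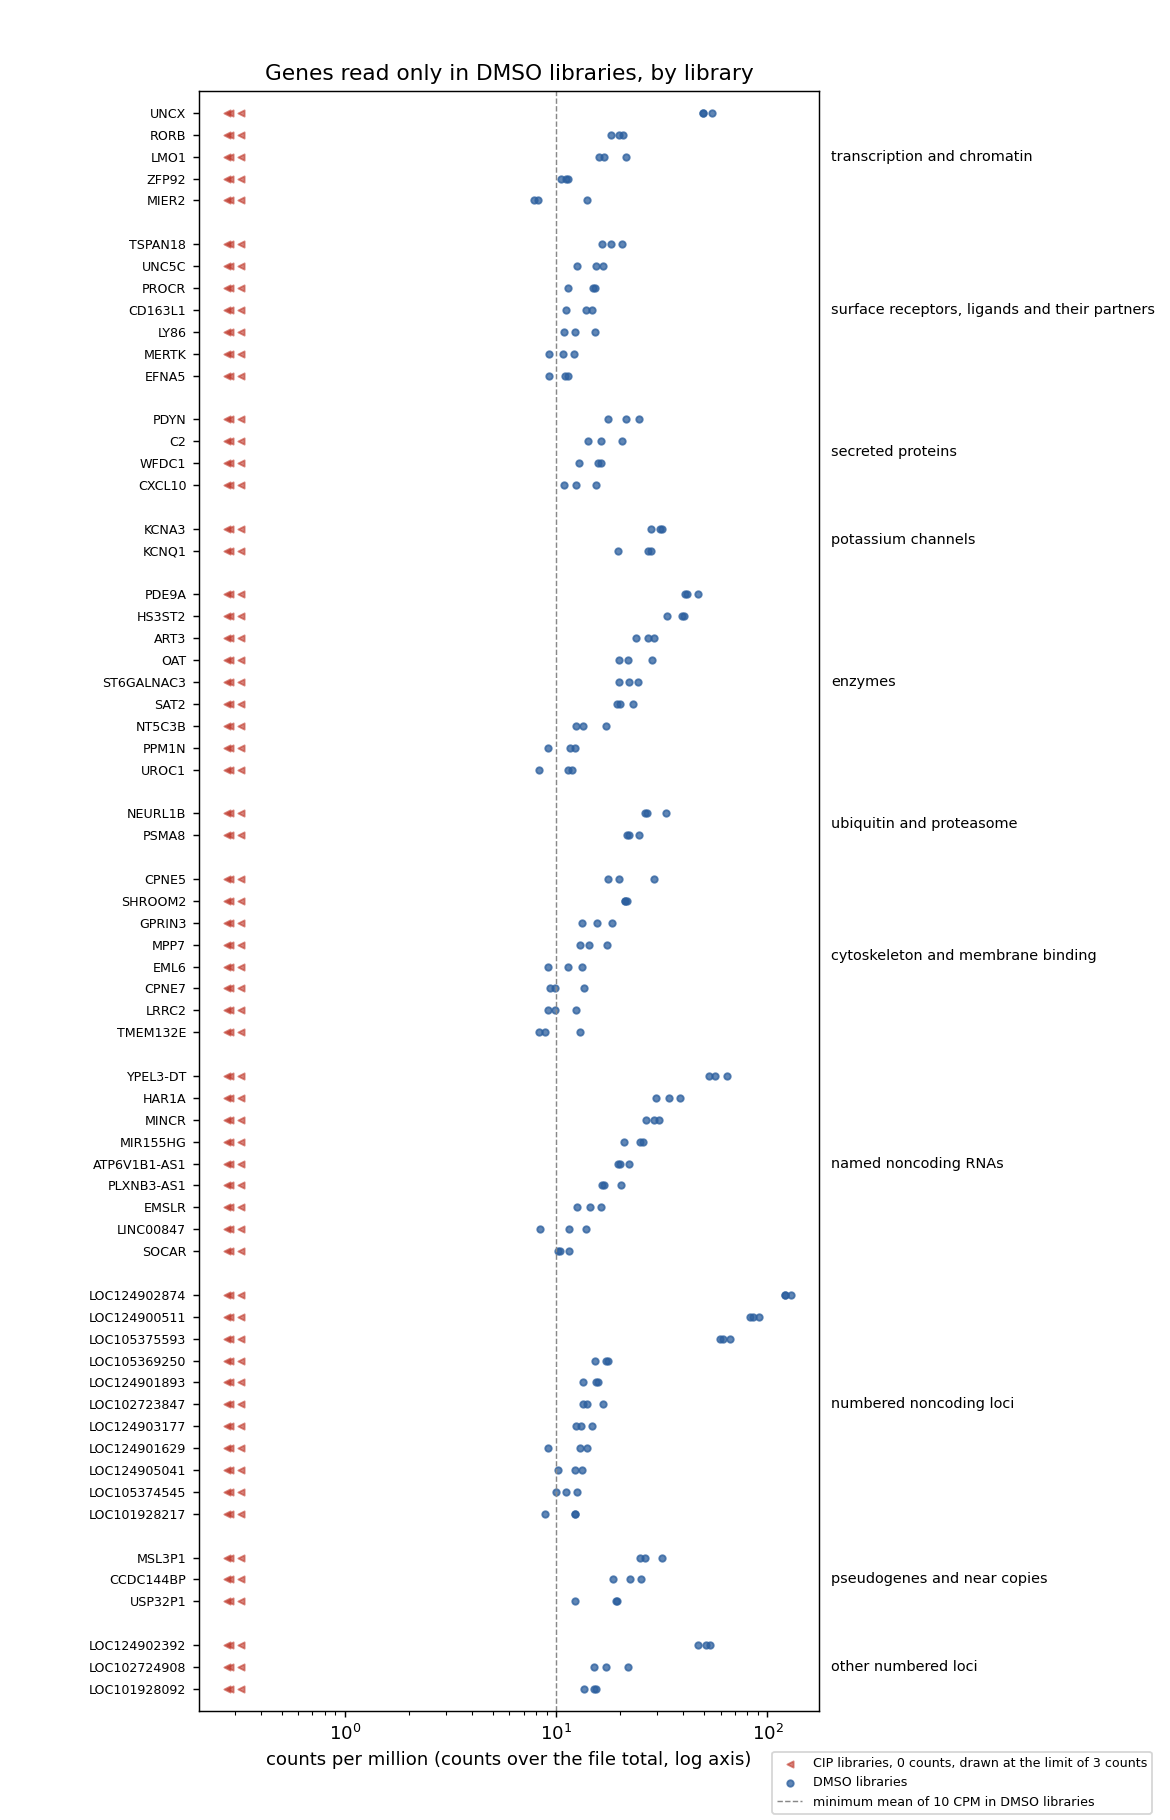
CPM (log axis) of the 63 genes in each library, grouped by role, with CIP libraries as red triangles at the limit of 3 counts, since all were at 0, and DMSO libraries as blue points. The dashed line marks the minimum mean of 10 CPM, and the DMSO points of a gene lie close together beside the gap to the CIP limits of 0.276 to 0.322 CPM.

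At the limits of the rule, TMEM132E (82, 81 and 105 DMSO counts, mean 10.01 CPM), MIER2 (73, 80 and 114, mean 10.02 CPM) and LRRC2 (92, 89 and 101, mean 10.48 CPM) were the members with the lowest DMSO means. Just under the minimum, also with 0 CIP counts, lay the Notch ligand gene DLL1 at 9.95 CPM, the low-affinity IgE receptor gene FCER2 at 9.904 CPM and LOC105375112 at 9.836 CPM. Other genes missed the rule by 1 to 3 counts. LOC124905143 had 1, 0 and 0 counts in CIP libraries against 1342, 1744 and 1342 in DMSO libraries. TMEM163, a zinc transporter gene, had 1, 0 and 0 against 1194, 1229 and 925 counts, and the meiotic cohesin gene SMC1B had 0, 3 and 0 against 1156, 1112 and 850 counts. There were 63 symbols with 1 to 3 CIP counts, as the ladder of CIP sums continued without a break above 0.

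Among regulators of transcription, UNCX (chromosome 7, 1232872 to 1237326), a homeobox factor of the developing spine and nervous system, was the highest. It had 0 counts in each CIP library and 458, 532 and 404 counts in the DMSO libraries (51.14 ± 2.92 CPM, SD, n = 3), at least 524-fold lower in CIP libraries. RORB, a nuclear receptor of retina and brain, had 191, 193 and 147 DMSO counts, and LMO1 (chromosome 11, 8224309 to 8268787), a LIM-domain bridging protein that acts as an oncogene in T-cell leukaemia, had 156, 155 and 175. The zinc finger gene ZFP92 had 103, 102 and 93 counts, the lowest spread of the 5. MIER2, which brings histone deacetylases to chromatin, had 73, 80 and 114, so that only DMSO replicate 3 lay above the minimum. In the CIP libraries all 5 were at 0, and the groups did not overlap, as the rule demands.

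Surface receptors, ligands and their partners made up 7 of the genes, all at 0 in the CIP libraries and at 10.52 to 18.37 CPM in the DMSO libraries. MERTK (chromosome 2, 111898607 to 112029561), the receptor kinase by which macrophages take up dying cells, had 112, 90 and 87 DMSO counts. LY86, the secreted partner of the B-cell and myeloid receptor CD180, had 101, 119 and 125, and CD163L1, a scavenger receptor of macrophages, had 103, 144 and 112. PROCR, the protein C receptor that also marks haematopoietic stem cells in mice, had 106, 145 and 124 counts. The axon guidance genes UNC5C, a netrin receptor, and EFNA5, an ephrin ligand, had 116, 150 and 136 counts and 102, 111 and 75 counts, and the tetraspanin TSPAN18 had 169, 160 and 167. These genes sat in the lower part of the range, with no library of any of them under 75 counts in the DMSO group.

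The 4 secreted products were of unlike kinds. PDYN, the precursor of the dynorphin opioid peptides, had 199, 172 and 201 DMSO counts, the complement component C2 had 131, 159 and 167, the protease-inhibitor-like WFDC1 had 119, 153 and 133, and the interferon-induced chemokine CXCL10 had 143, 121 and 89. Both potassium channels were higher than any of these. KCNA3 (chromosome 1, 110653560 to 110674940), the voltage-gated channel known from T lymphocytes, had 294, 302 and 228 DMSO counts (30.2 ± 1.94 CPM), and KCNQ1, known from heart and inner ear, had 181, 266 and 230 (25 ± 4.79 CPM). Each of the 6 genes had 0 counts in each CIP library.

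Enzymes were the largest group of named protein-coding genes, with 9 members. PDE9A (chromosome 21, 42653621 to 42775509), which breaks down cyclic GMP, led them with 0 counts in each CIP library against 434, 398 and 340 in DMSO libraries (43.09 ± 3.19 CPM, at least 441-fold lower in CIP libraries). HS3ST2 (chromosome 16, 22814162 to 22916338), a heparan sulfate sulfotransferase, had 375, 385 and 274 DMSO counts, and ART3, of the ADP-ribosyltransferase family, had 269, 232 and 221. OAT (chromosome 10, 124397303 to 124418923), the mitochondrial ornithine aminotransferase that most tissues make, had 265, 193 and 178. It has processed pseudogenes, so its counts are uncertain under both labels. ST6GALNAC3, a sialyltransferase, had 184, 239 and 179 DMSO counts, and SAT2, a relative of the polyamine acetyltransferase SAT1, had 186, 224 and 157. NT5C3B, a cytosolic nucleotidase, PPM1N, a phosphatase, and UROC1, the urocanate hydratase of histidine breakdown in liver, had DMSO means of 14.31, 10.96 and 10.53 CPM.

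In the ubiquitin and proteasome group, NEURL1B, a ubiquitin ligase that acts on Notch ligands, had 251, 257 and 270 DMSO counts, and PSMA8, the proteasome subunit of testis, had 229, 212 and 179, each against 0 in every CIP library. Genes of the cytoskeleton and of membrane binding were 8 in number at 10.01 to 22.14 CPM in DMSO libraries. They included 2 copines, which bind membranes with calcium. CPNE5 had 163, 194 and 236 DMSO counts and CPNE7 had 92, 91 and 110. SHROOM2, an actin-binding protein of cell shape, had 202, 207 and 172, and its DMSO values in CPM were the closest together of all 63 genes. The polarity scaffold MPP7, the microtubule protein EML6, GPRIN3, LRRC2 and TMEM132E had 74 to 161 counts in any DMSO library, with MPP7 the highest at 161.

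Noncoding RNAs were read only with the DMSO label in 20 cases, 9 with a name and 11 with a locus number. LOC124902874 (chromosome 12, 9951657 to 9956997) was the most abundant of all 63 genes, with 0 counts in each CIP library against 1123, 1181 and 1051 in DMSO libraries (123.7 ± 4.67 CPM, at least 1267-fold lower in CIP libraries). LOC124900511 (chromosome 2, 66548025 to 66561124) lies inside MEIS1, a homeobox gene of progenitors that is itself without CIP counts, and had 796, 891 and 676 DMSO counts. Both are listed on the plus strand, so even a known strand setting would not tell their reads apart. LOC105375593 on chromosome 7 had 570, 585 and 543, and YPEL3-DT (chromosome 16, 30096430 to 30105456), the divergent transcript of YPEL3, had 599, 551 and 428. HAR1A, an RNA of the developing human brain, had 277, 375 and 278, and MINCR, an RNA known to be induced by MYC in B-cell lymphoma, had 285, 259 and 235. MYC itself had 2337, 3288 and 2315 counts in CIP libraries against 468, 414 and 349 in DMSO libraries, the opposite direction to MINCR.

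MIR155HG (chromosome 21, 25562145 to 25575168) is the host transcript of the microRNA miR-155, which is known from activated lymphocytes and macrophages. It had 0 counts in each CIP library and 194, 250 and 203 in the DMSO libraries (23.81 ± 2.55 CPM). QuantSeq does not read mature microRNAs, so these values are of the host transcript alone. Its mature products are shown from RefSeq (GRCh38.p14, plus strand) because they are what the transcript is known for, with the seed, bases 2 to 8, in capitals. They lie at chr21:25573983-25574006 and chr21:25574022-25574043.
hsa-miR-155-5p: uUAAUGCUaaucgugauagggguu
hsa-miR-155-3p: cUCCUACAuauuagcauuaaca
The remaining named noncoding RNAs, ATP6V1B1-AS1, PLXNB3-AS1, EMSLR, LINC00847 and SOCAR, had DMSO means of 10.73 to 20.6 CPM. The other 8 numbered noncoding loci had 11.06 to 16.67 CPM. LOC124902392, a predicted protein-coding locus, had 476, 460 and 437 DMSO counts, and 2 further numbered loci without a RefSeq entry had 18.01 and 14.64 CPM. MSL3P1 (MSL3B in RefSeq), CCDC144BP and USP32P1 have near-identical relatives elsewhere in the genome. At 27.65, 22 and 16.86 CPM in DMSO libraries, their counts are uncertain.

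By RefSeq type, long noncoding RNAs were 31.7% of the 63 genes (20, exact 95% interval 20.6% to 44.7%). They were 23.7% of the 38 genes read only in CIP libraries (interval 11.4% to 40.2%), and 3.25% of the 6716 genes with a DMSO mean in the same range and any CIP count (interval 2.84% to 3.7%). Protein-coding genes were 61.9% of the 63 genes, 76.3% of the CIP-only genes and 95.7% of the others. The rule did not use gene type, but the 8 symbols it set aside by name are all protein-coding, which raises the noncoding share. The interval of the 63 genes lies above that of genes read under both labels and overlaps that of the CIP-only genes. The genes read under both labels were matched by range alone, here and for the promoters below. The 63 genes lie lower in that range, with a median counting error of 8.1% against 5.86%. Of the 60 genes with a place on a chromosome, 44 (73.3%, interval 60.3% to 83.9%) overlap another annotated gene, against 59.1% of DMSO-expressed genes with any CIP count, so reads shared with a neighbour are a common limit here.

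Promoter windows were found for 42 of the 63 genes. A promoter was counted as rich in CpG at an observed over expected ratio of at least 0.6 and a GC content of at least 50%. That held for 21 of 42 (50%, exact 95% interval 34.2% to 65.8%), for 48.4% of the CIP-only genes (interval 30.2% to 66.9%), for 85.1% of genes in the same DMSO range with any CIP count (interval 84.2% to 86%) and for 46.9% of all promoters in the table. Among protein-coding genes alone, a split chosen after the data were seen, 65.5% of 29 promoters were rich in CpG (interval 45.7% to 82.1%), against 85.6% of 5394 in the same range. Promoters rich in CpG included those of UNCX, LMO1, RORB, MERTK, EFNA5, HS3ST2, OAT, MIR155HG and YPEL3-DT. Those of LY86, CD163L1, CXCL10, PROCR, KCNA3, UROC1 and LOC124902874 were poor in CpG by the same rule. For KCNA3, PROCR, MPP7 and CPNE5 the window lies inside the gene's listed span and not at its outer end. The outer end of these genes was not scored, so their class holds for the window alone.

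**Figure D2:**
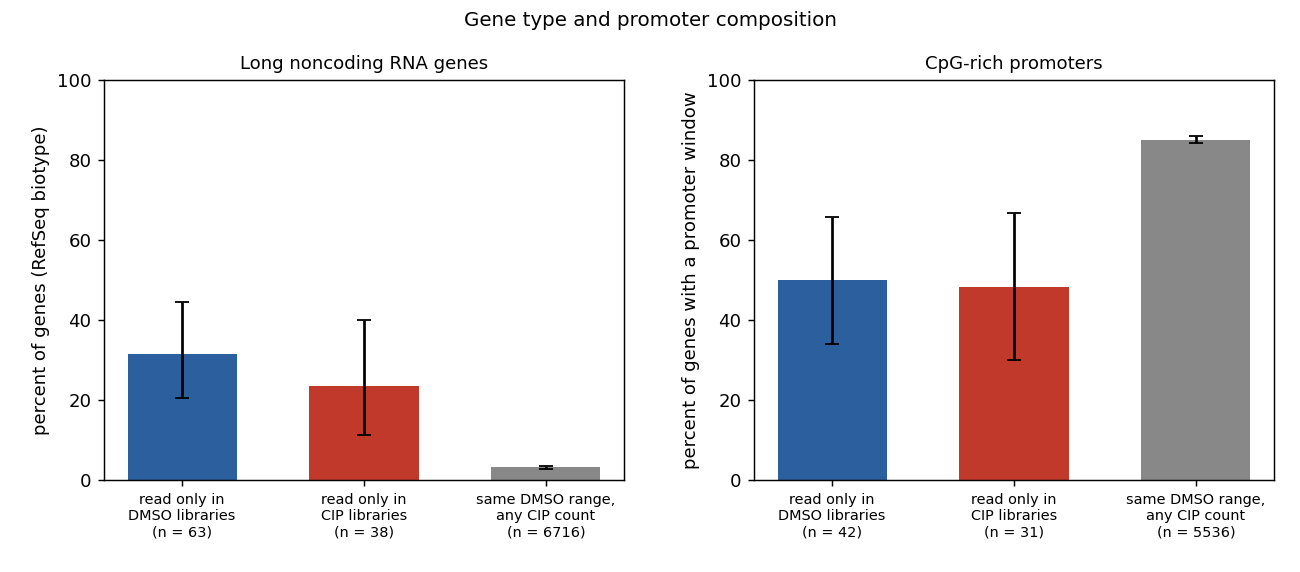
Share of long noncoding RNA genes (left) and of CpG-rich promoters (right), in percent, for genes read only in DMSO libraries, genes read only in CIP libraries and genes with a DMSO mean in the same range and any CIP count; bars are shares and whiskers exact 95% binomial intervals. Both single-label sets hold more noncoding genes (31.7% and 23.7% against 3.25%) and fewer CpG-rich promoters (50% and 48.4% against 85.1%) than the third set.

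Short motifs were searched on both strands of the same windows. The letters TATAAA, the core of the TATA box, were in 6 of 42 promoters (14.3%, interval 5.43% to 28.5%), against 4.72% of DMSO-expressed genes with any CIP count and 12% of all promoters. GGGCGG, the GC box, was in 50% (interval 34.2% to 65.8%), against 72.3% and 44.6%. The CCAAT box was in 31% of promoters, against 35.7% of all promoters, and the E-box CACGTG in 7.14% against 7.43%. The letters TGTGGT, read by RUNX factors, were in 11.9%, against 13.1%. ETS factors read GAGGAA, which was in 21.4%, against 27.6%. The GATA motif AGATAA was in 7.14%, against 10.5%, and the MEIS motif TGACAG was in 19.0%, against 15.9%. For every motif searched, TATAAA and GGGCGG included, the share of all promoters lay inside the exact interval of the 63 genes. The share of DMSO-expressed genes with any CIP count lay outside it for TATAAA and GGGCGG and inside it for the rest. Among protein-coding genes alone, the split chosen after the data were seen, both lay inside. There TATAAA was in 10.3% of 29 promoters (interval 2.19% to 27.4%), against 4.02% of 5394 in the same DMSO range. GGGCGG was in 65.5% (interval 45.7% to 82.1%), against 73.2%. A match is only a run of letters and not a binding site.

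Spread among the DMSO libraries was not used by the rule. The median coefficient of variation over the 3 DMSO libraries was 12.5% for the 63 genes, where counting error alone gives a median of 8.1%. For the 6716 other genes in the same range of DMSO means it was 8.63%, where counting error alone gives 5.86%. SHROOM2 had the lowest value at 1.44%, and MIER2 at 34.0%, CPNE5 at 26.9%, LINC00847 at 25.1% and TMEM132E at 24.6% (as for USP32P1) the highest. DMSO replicate 3 held the highest CPM for 29 of the 63 genes, replicate 1 for 19 and replicate 2 for 15. The median of the 63 genes was 8.22% without DMSO replicate 1, 12.8% without replicate 2 and 9.3% without replicate 3. Each of these rests on 2 libraries, and the other genes were not recomputed in this way.

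Neighbouring genes were then compared. The rule did not use their counts, except those of MEIS1, which met it and was set aside by name. Of 145 tested genes within 100 kb of one of the 63, 87 (60%) fell and 24 (16.6%) rose in CIP libraries, with a median log2 fold change of -0.64. Without MEIS1, an alternative added after the data were seen, 86 of 144 (59.7%) fell and 24 (16.7%) rose, with a median of -0.63. Over all 12844 tested genes, 38.2% fell, 34.9% rose and 73.1% changed either way (edgeR's quasi-likelihood test, Benjamini-Hochberg adjusted p under 0.05), with a median of -0.03. Around the 38 CIP-only genes the proportions were turned round, with 20.8% of 77 tested neighbours lower and 53.2% higher. All 63 genes themselves were called lower, which the rule fixes. Neighbours of 1 gene share a locus and are not independent. Counted by gene, 31 of the 47 genes with a tested neighbour had more that fell than rose (LOC124900511 among them through MEIS1 alone), 5 had more that rose, and 11 had as many of each. Among the 11, ATP6V1B1-AS1, HAR1A, MSL3P1 and PROCR had no called neighbour in either direction. No such count was made around genes in general. Scaled by library totals alone, 70.3% of neighbours fell and 10.3% rose, against 46.1% and 26.9% of all tested genes, whose median moved to -0.26.

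**Figure D3:**
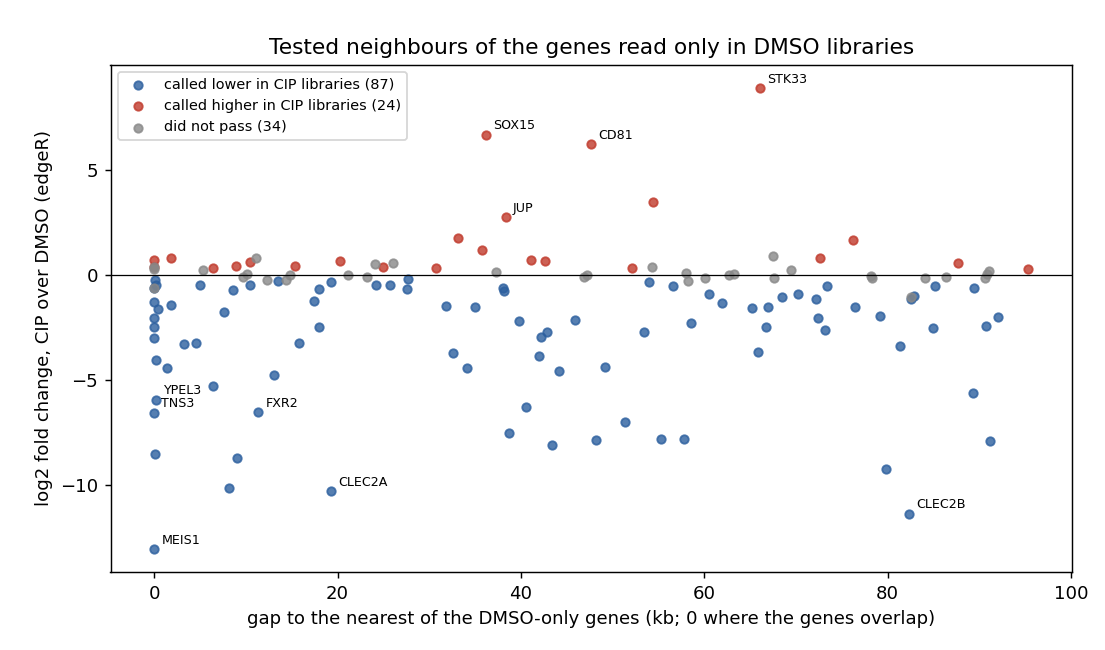
Log2 fold change, CIP over DMSO (edgeR), of the 145 tested neighbours against the gap in kb to the nearest of the 63 genes, coloured by call. The 87 that fell lie across the whole distance, among them CLEC2B at -11.35, and the 24 that rose include CD81 at 6.22 and STK33 at 8.88.

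A run of falls lay around LOC124902874 in the lectin cluster of chromosome 12, where all 5 tested neighbours fell. CLEC2B had 0.544 ± 0.467 CPM in CIP libraries against 1630 ± 198 CPM in DMSO libraries (n = 3 each), a log2 fold change of -11.35 (edgeR adjusted p = 4.7e-16). CLEC2A had 1 count over the CIP libraries against 1772 over the DMSO libraries, and LINC02470 had 8 against 9655. CLEC12A, which overlaps LOC124902874, was read under both labels at 25.8 ± 3.28 against 241 ± 4.19 CPM. The lectin genes thus ranged from near 0 to a partial fall within the same cluster.

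Around SAT2 on chromosome 17, 6 of 9 tested neighbours fell, 1 rose and 2 did not pass. FXR2, a relative of the fragile X protein, had 9 counts over the CIP libraries against 897 over the DMSO libraries, and CD68, a macrophage glycoprotein, had 20 against 500. Other neighbours were read under both labels or with CIP alone. MPDU1 stood at 8.73 ± 0.715 CPM in CIP libraries and 15.6 ± 2.3 CPM in DMSO libraries, SENP3 had 70 counts against 56 over the 3 libraries of each group, and SOX15 had 37 against 0.

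Elsewhere a close neighbour was read under both labels. EHMT2, a histone methyltransferase gene 85 bases from C2, stood at 53.8 ± 3.55 CPM in CIP libraries and 75.6 ± 2.67 CPM in DMSO libraries (log2 fold change -0.26), and CFB, the complement gene 423 bases from C2, had 27 counts against 88. RTN4, 164 bases from EML6, stood at 340 ± 12.2 against 558 ± 19.0 CPM (log2 fold change -0.49). NUP54, a nuclear pore gene 1878 bases from ART3, rose, at 30.9 ± 0.781 against 20.6 ± 1.63 CPM (log2 fold change 0.81, edgeR adjusted p = 1.5e-06). YPEL3, which shares its start region with YPEL3-DT at a gap of 217 bases, fell with it, at 4 counts over the CIP libraries against 275 over the DMSO libraries.

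In places the neighbour went the other way. CD81, a tetraspanin gene 47611 bases from KCNQ1, had 148 ± 5.6 CPM in CIP libraries and 2.27 ± 1.66 CPM in DMSO libraries (log2 fold change 6.22, edgeR adjusted p = 1.6e-12), while the antisense RNA KCNQ1OT1 inside KCNQ1 fell, at 20.5 ± 1.79 against 99.3 ± 8.25 CPM. The kinase gene STK33, 66037 bases from LMO1, had 631 counts over the CIP libraries against 1 over the DMSO libraries. JUP, the plakoglobin gene 38346 bases from NT5C3B, rose to 45.6 ± 2.89 CPM in CIP libraries against 8.07 ± 2.57 CPM in DMSO libraries. Among the 63 genes themselves, ART3 and CXCL10 overlap on chromosome 4, MERTK and SOCAR lie 387613 bases apart on chromosome 2, and PLXNB3-AS1 and ZFP92 lie 308371 bases apart on chromosome X.

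**Figure D4:**
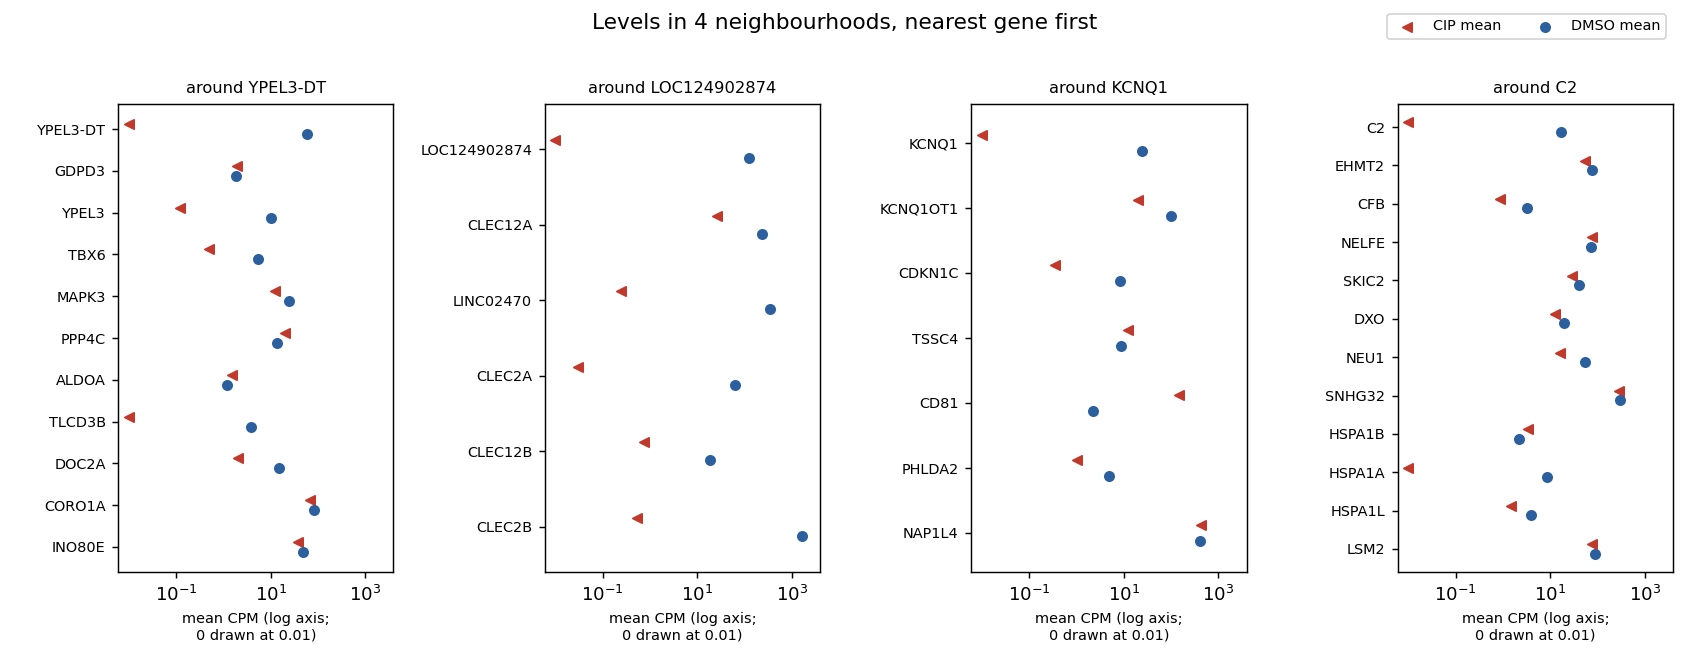
Mean CPM (log axis, 0 drawn at 0.01) of YPEL3-DT, LOC124902874, KCNQ1 and C2 and of their tested neighbours, the nearest first, with CIP means as red triangles and DMSO means as blue points. Genes read well under both labels, such as EHMT2 (53.8 and 75.6 CPM) and NAP1L4 (436 and 413 CPM), stand among genes at or near 0 with one label.

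Genes that share the letters of a member's symbol were also compared. Of 106 tested genes in 16 such families 48 (45.3%) fell and 33 (31.1%) rose in CIP libraries (all tested genes 38.2% and 34.9%), and some of these names (LRRC, UNC, ZFP) join genes of unlike function. Of the 5 other tested copines 4 fell and none rose. CPNE3 stood at 0.545 ± 0.333 CPM in CIP libraries against 48.7 ± 1.82 CPM in DMSO libraries (log2 fold change -6.20 ± 0.24, SE), and CPNE1 at 136 ± 16.7 against 315 ± 28.4 CPM. CPNE2, at 25.5 ± 2.24 against 36.4 ± 6.53 CPM, did not pass (edgeR adjusted p = 0.056). That rested on the scaling, as by library totals CPNE2 was called lower (log2 fold change -0.51, edgeR adjusted p = 0.00084).

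Of 10 PDE symbols beside PDE9A 7 fell and 3 rose, among them PDE4DIP, which shares only the name. PDE4D, which breaks down cyclic AMP, fell to 9.01 ± 3.86 CPM in CIP libraries against 127 ± 5.99 CPM in DMSO libraries, and PDE3B rose to 16.7 ± 1.85 against 5.37 ± 1.18 CPM. Of 12 tetraspanins beside TSPAN18 9 fell and 2 rose, with TSPAN2 at 0, 2 and 0 counts in CIP libraries against 254, 287 and 143 in DMSO libraries, and TSPAN32 higher at 55.8 ± 3.2 against 17.8 ± 2.14 CPM. All 3 tested EML genes fell, EML2 the most (32.7 ± 0.742 against 98.8 ± 6.06 CPM). Beside the PDE, tetraspanin and EML counts, the shares over all tested genes were 38.2% lower and 34.9% higher.

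Of 6 tested other alpha subunits of the proteasome 4 rose, 1 fell and 1 did not pass (34.9% of all tested genes rose), with PSMA5 at 52.4 ± 3.94 CPM in CIP libraries against 23.1 ± 3.26 CPM in DMSO libraries, and PSMA4 lower at 234 ± 21.4 against 494 ± 38 CPM. The rise of PSMA7, at 546 ± 16 against 544 ± 37.6 CPM, rested on the scaling, with a log2 fold change of 0.23 after TMM scaling and 0.00 by library totals (edgeR adjusted p = 0.98), where 3 rose. The LIM-only relatives of LMO1, LMO2 and LMO4, rose, at 56 ± 10.4 against 40.5 ± 3.64 CPM and 78.8 ± 8.67 against 38.8 ± 2.07 CPM. LMO7, of the same symbol family, fell, at 8.9 ± 1.69 against 66.9 ± 2.63 CPM. SAT1, the stress-induced polyamine acetyltransferase, fell to 45.6 ± 2.83 against 100 ± 9.1 CPM. The netrin receptors other than UNC5C split, with UNC5A at 0 against 3.56 ± 0.179 CPM and UNC5B at 3.4 ± 0.823 against 0.154 ± 0.134 CPM. KCNQ5, the tested relative of KCNQ1, rose to 23.3 ± 0.765 against 6.56 ± 1.89 CPM.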

How the data were processed

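The deposited files hold raw counts, as whole numbers by symbol, and each file holds 1 library. Per the submitters' processing notes, STAR, HTSeq, fastp and bcl2fastq 2.20.0.422 were used with build GRCh38. Neither annotation release nor strand setting is given in the sources used here, hence reads of overlapping genes on opposite strands cannot be told apart. QuantSeq reads transcript ends, so a gene whose 3' end lies outside the annotation can be listed at 0.

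CPM is a count scaled to its file's total. The members and lists were chosen with earlier results of these data known. Every member may be named. The other named genes are those nearest the rule's limits, called neighbours within 100 kb and called genes of the same symbol family at 10 CPM or more in either group, chosen for the size of their change, and the marker genes. MYC and the neighbours and family genes named for a small gap or a differing pattern were chosen after their values were seen. Symbol families were grouped by the letters before a symbol's last number. Roles were assigned after the symbols were known.

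The fit was edgeR 4.0.16 (robust quasi-likelihood, R 4.3.3) after filterByExpr and TMM scaling, with group alone, 2-sided, Benjamini-Hochberg over 12844 genes, called at an adjusted p under 0.05. It was tested on simulated data in which only a small share of genes changed. Most tested genes were called in the data here, so the simulation does not cover the scaling in that setting. An SE is the log2 fold change over the square root of F. Alternatives used RLE scaling, library totals, other filters, DESeq2 1.42.0, thinned libraries, the replicate number as a block, each library left out, and other distances and minimums. Names, positions and promoters come from RefSeq on GRCh38.p14, matched for 61 of 63 members by symbol (MSL3P1 as a synonym of MSL3B). Within groups, no pair of libraries agreed within sampling noise (3.9 to 8.14 chi-square units per gene). Intervals are exact 95% binomial and cover counting error only. One neighbouring gene is counted among the neighbours and is otherwise not reported here.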

Additional observations from a re-analysis of the deposited data

How the results depend on the processing

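The number of genes read only in DMSO libraries was 63 by the rule, 126 with a minimum of 5 CPM, 25 with a minimum of 20 CPM and 124 with up to 3 counts over the CIP libraries allowed. It was 56 with TMM-scaled CPM and 64 with libraries thinned to the smallest total, 60 of them shared with the 63, and 62 to 88 with any library left out. Of the 63 genes, 56 met the rule whichever library was left out. Fallen neighbours numbered 54 within 50 kb and 169 within 250 kb, and risen ones 69 within 250 kb, because the number of genes tested changes with the distance. With library totals alone risen neighbours numbered 15 in place of 24. Calls over all genes, neighbours and families otherwise stayed within 1.5 times. The median coefficient of variation was 8.22% to 12.8% with a DMSO library left out, where 2 libraries give it. Replicate numbers did not pair the libraries (correlations of deviations of same-numbered libraries -0.0271 to -0.00992). With the replicate number as a block, 4755 genes were lower and 4306 higher in place of 4912 and 4482, and 85 neighbours fell. CpG-rich promoters were 38.1% of the genes under the stricter definition, against 69.3% of genes in the same DMSO range. A level under 0.0976 CPM over the CIP libraries could not be seen at this depth.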
